A study of Homo sapiens with 2 samples.

Results

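The 10 genes described here are 3 genes of the chromosome band 9p21 (CDKN2A, CDKN2B and MTAP) and 7 genes tied to their loss in cancer cells: PRMT5 and MAT2A on the MTAP side, and CDK4, CDK6, CDKN2C, CCND1 and RB1 on the CDKN2A side. They were taken by gene symbol from a table of 58698 genes, and all 10 were found in it once. Total RNA had been sequenced from MIA PaCa-2, a human pancreatic cancer cell line, in 2 libraries. The sgTPST2 library came from cells with a guide against TPST2, which encodes a tyrosylprotein sulfotransferase of the Golgi, and the labels give their genotype as a TPST2 knockdown. The sgGFP library came from cells with a guide against GFP, a jellyfish gene that human cells lack, and the labels give their genotype as wild type. Both share the parental line and whatever that line has lost. The labels do not say whether the cultures were clones or pools, or whether the guide cut its target or repressed it. Each condition was 1 library, so the differences below have no replicate spread to be compared with, and no test was made.

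At 9p21, CDKN2A encodes p16INK4a, which holds the kinases CDK4 and CDK6 inactive, and, in another reading frame, ARF, which restrains the ubiquitin ligase MDM2. CDKN2B encodes p15INK4b, a second inhibitor of the same kinases. Active CDK4 or CDK6 with a D-type cyclin phosphorylates RB1, which then releases the E2F transcription factors that start S phase. MTAP clears methylthioadenosine, a by-product of polyamine synthesis, and often goes when CDKN2A is deleted because it lies beside it. Methylthioadenosine that builds up without MTAP partly blocks the arginine methyltransferase PRMT5, and such cells depend more on PRMT5 and on MAT2A, which makes its methyl donor. MIA PaCa-2 is known as a line with a homozygous deletion of CDKN2A and MTAP; RNA levels do not measure DNA copies.

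TPST2 itself stood at 1.92 FPKM in sgTPST2 and 8.46 FPKM in sgGFP (fragments per kb of transcript, relative to library size), a difference of -1.70 on the log2(FPKM + 1) scale used throughout. The low values of the table gave about 47.8 fragments in sgTPST2 and 42.3 in sgGFP for 1 FPKM over 1 kb of transcript, and the 95% Poisson intervals below are for 1 kb and cover counting error only. The keratins KRT8, KRT18 and KRT19 were present, and EPCAM was listed at 0 in both libraries. MUC1 stood at 1.71 FPKM in sgTPST2 and 0.828 FPKM in sgGFP, and KRT7 and CDH1 were under 1 FPKM in both. The 7 ductal epithelial markers summed to 142 FPKM in sgTPST2 and 1284 FPKM in sgGFP, nearly all of it from KRT8, KRT18 and KRT19, and their part in the values below was not tested. Of markers of other cells, 2 of 6 fibroblast, 1 of 4 leukocyte and 2 of 5 endothelial markers reached 1 FPKM in either library. Their lists summed to 15.6, 1.76 and 0.418 FPKM in sgTPST2 and 47.6, 2.85 and 12.7 FPKM in sgGFP. The fibroblast markers COL1A2 and COL3A1 stood at 3.47 and 11.9 FPKM in sgTPST2 and 29.05 and 18.5 FPKM in sgGFP. The leukocyte marker CD14 stood at 1.76 FPKM in sgTPST2 and 2.67 FPKM in sgGFP. The endothelial markers CDH5 and EMCN stood at 0.277 and 0.136 FPKM in sgTPST2 and 2.93 and 9.64 FPKM in sgGFP. DCN, LUM, CD3E, PECAM1 and KDR were listed at 0 in both libraries.

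CDKN2A, CDKN2B and MTAP were each listed at 0 FPKM in sgTPST2 and at 0 FPKM in sgGFP. If a listed 0 is a true count of 0, a transcript of 1 kb could still stand at up to 0.0627 FPKM in sgTPST2 and 0.071 FPKM in sgGFP (3 fragments). The authors' deposited table did not test these genes. A listed 0 was common, since 4479 of 19940 protein-coding genes (22.5%) were at 0 in both libraries. The same held for genes lying over them on either strand: the antisense RNA CDKN2B-AS1 and the readthrough gene AL359922.1 were listed at 0 in both libraries. CDKN2A (ENSG00000147889.17, chromosome 9, 21967753 to 21995301, GRCh38) and CDKN2B (ENSG00000147883.10, 22002903 to 22009363) lie on the minus strand, and MTAP (ENSG00000099810.19, 21802543 to 21937651) on the plus strand.

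Listed zeros extended far on both sides of the 3 genes in both libraries. Between ACER2 and CAAP1, a stretch of 7.39 Mb on chromosome 9 (19452021 to 26840684), 28 of 29 protein-coding genes were listed at 0 in both libraries; its ends were set after the values were seen. They include the tumour suppressor candidates FOCAD and TUSC1, the transcriptional elongation gene MLLT3 and the ubiquitin ligase adaptor KLHL9, all named after their values were seen. The stretch also holds 16 type I interferon genes, the IFNA genes with IFNB1, IFNW1 and IFNE, and all 16 were listed at 0 in both libraries. The exception was IZUMO3, of the family of the sperm-egg fusion protein IZUMO1, listed at 0 in sgTPST2 and at 0.705 FPKM in sgGFP, about 29.8 fragments per kb. Its sgGFP value was under the 1 FPKM used as a filter, and with 1 library per condition the difference has no replicate spread to be compared with. Of all 97 annotated genes of the stretch, 92 were at 0 in both libraries, and RN7SL151P, a pseudogene of the multicopy 7SL RNA, was the 1 gene at 1 FPKM or more, with 1.24 FPKM in sgTPST2 and 1.22 FPKM in sgGFP. Its reads cannot be told apart from those of near-identical copies.

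Long runs of genes at 0 occur elsewhere, so the length alone is not particular to 9p21. From SLC24A2 to ELAVL2, 27 neighbouring protein-coding genes over 4.32 Mb were at 0 in both libraries. Of 2107 such runs in the genome, 10 held as many genes or more and 5 spanned as much or more, these counts including the 9p21 run itself. Others of the longest runs hold olfactory receptor, keratin or defensin genes, families expressed in few cell types.

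Expression was present on both sides of the gap, and there the protein-coding genes of at least 1 FPKM differed by less than 1.5-fold. Toward the telomere, the nearest such gene was the ribosomal protein gene RPS6, at 1935 FPKM in sgTPST2 and 2074 FPKM in sgGFP. The antisense RNA AL391834.2, which overlaps RPS6 and may share its reads, stood at 2.59 FPKM in sgTPST2 and 5.03 FPKM in sgGFP, a difference of -0.75 and so more than 1.5-fold lower. ACER2, a ceramidase gene nearer to the gap, was under 1 FPKM, at 0.345 FPKM in sgTPST2 and 0.392 FPKM in sgGFP. Farther out, RRAGA, a GTPase of amino-acid signalling to mTORC1, stood at 31.9 FPKM in sgTPST2 and 31.1 FPKM in sgGFP. The lipid droplet protein gene PLIN2 stood at 35.3 FPKM in sgTPST2 and 32.1 FPKM in sgGFP, and the spindle gene HAUS6 at 13.8 and 15.4 FPKM. DENND4C, which encodes a Rab activator, was at 9.87 FPKM in sgTPST2 and 12.7 FPKM in sgGFP, and the pseudogene AL161909.1 at 2.52 and 2.80 FPKM. Toward the centromere, CAAP1, an apoptosis regulator chosen after its values were seen, stood at 10.9 FPKM in sgTPST2 and 13.7 FPKM in sgGFP. The 5 protein-coding genes of at least 1 FPKM on the telomeric side had a median difference of -0.10, and the 3 just past the gap on the centromeric side one of -0.25.

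**Figure D1:**
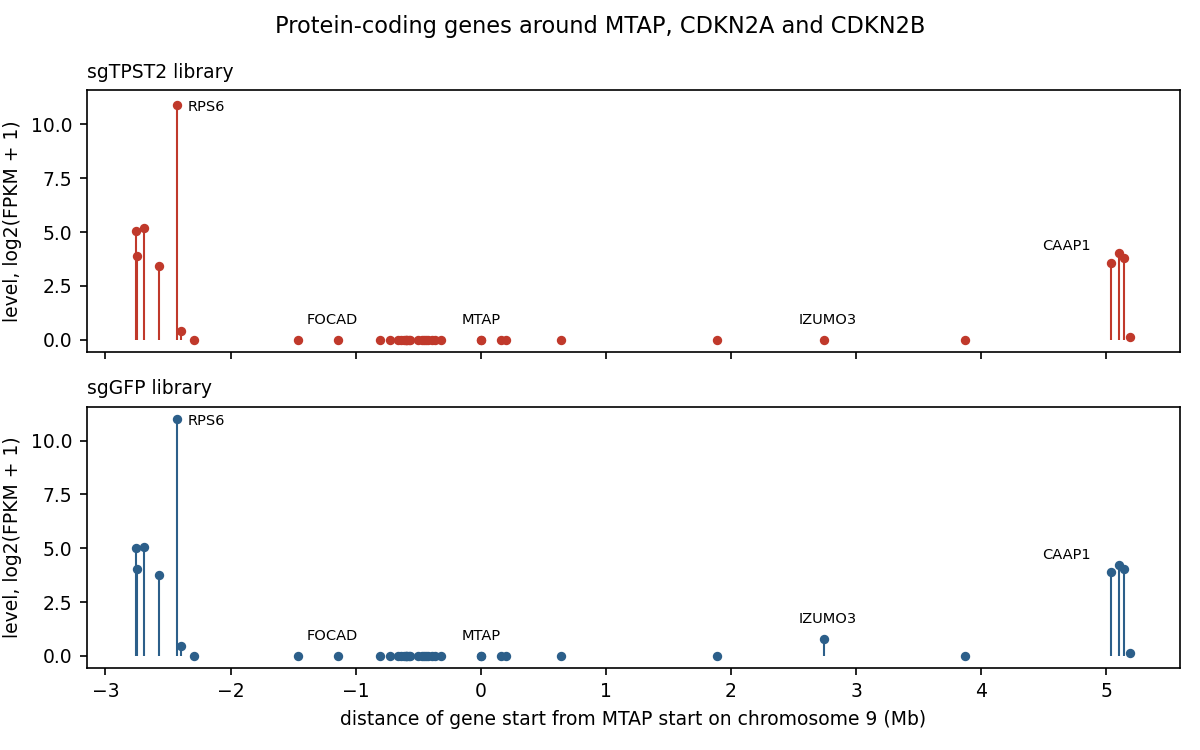
Level of each protein-coding gene as log2(FPKM + 1) against the distance of its start from the start of MTAP in Mb, with sgTPST2 above and sgGFP below. Points stand at 0 from before FOCAD to beyond MTAP in both libraries, between the genes next to RPS6 and those next to CAAP1; IZUMO3 stands at 0.705 FPKM in sgGFP alone.

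Among the other 7 genes, CDK6 was the 1 gene at least 1.5-fold apart between the libraries, and it was lower in sgTPST2. All 7 passed the filter that the higher value be at least 1 FPKM, CDK6 through its sgGFP value alone, and the 3 genes at 9p21 did not. Of these 7, 0 were at least 1.5-fold higher and 1 was lower. Over all 13420 genes past the filter, 4.41% were at least 1.5-fold higher and 6.94% lower, so 1 of 7 is not a count that stands out from the background. With a filter of 5 FPKM, CDK6 would not be counted and 0 of the remaining 6 would be lower. Per length, MAT2A was the most abundant of the 10 in both libraries, followed by PRMT5 and CDK4, then CCND1, RB1, CDKN2C and CDK6. PRMT5 and CDK4 had overlapping counting intervals in sgTPST2, but not in sgGFP, where PRMT5 was above CDK4.

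**Figure D2:**
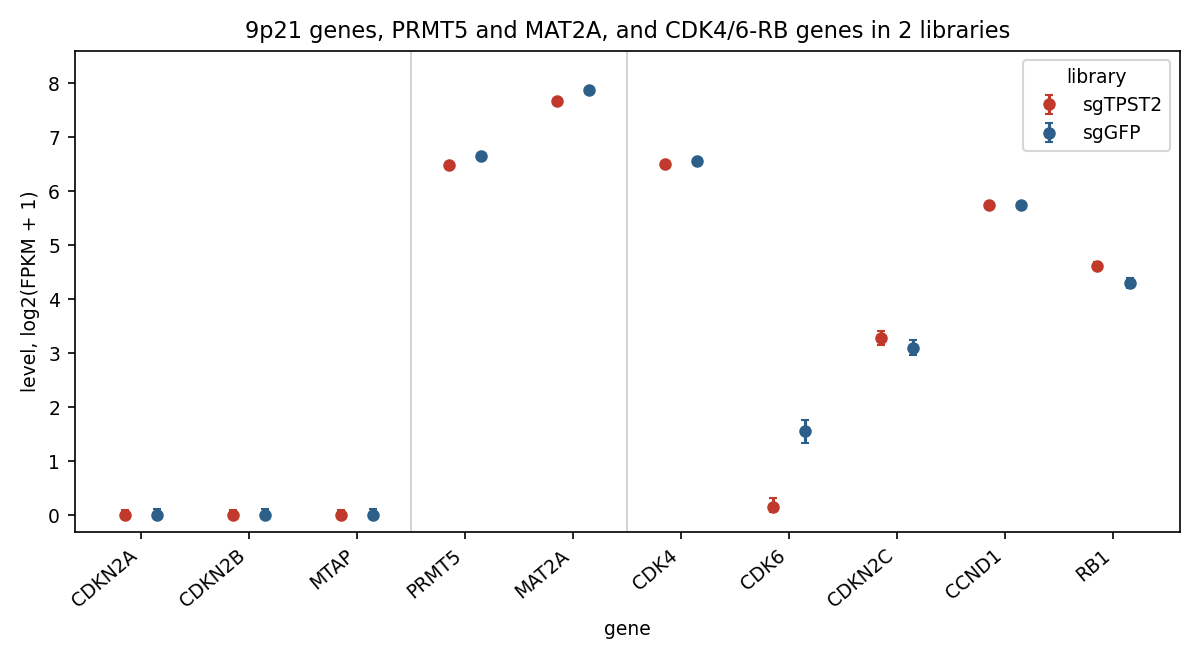
Level of each of the 10 genes as log2(FPKM + 1), with sgTPST2 left of sgGFP; bars are 95% Poisson counting intervals for 1 kb of transcript, with 1 library per group. CDKN2A, CDKN2B and MTAP are at 0 in both libraries, and CDK6 shows the widest gap, with 0.114 FPKM in sgTPST2 and 1.94 FPKM in sgGFP.

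On the MTAP side, PRMT5 and MAT2A were abundant in both libraries and slightly lower in sgTPST2. PRMT5 (ENSG00000100462.15, chromosome 14, 22920511 to 22929585, GRCh38), which makes symmetric dimethylarginine, had 89.0 FPKM in sgTPST2 and 100.004 FPKM in sgGFP. The difference was -0.17 with a counting interval from -0.23 to -0.11, and 51 expressed genes within 5 Mb had a median of 0.04. MAT2A (ENSG00000168906.12, chromosome 2, 85539165 to 85545280), the S-adenosylmethionine synthetase of most tissues outside the liver, had 203 FPKM in sgTPST2 and 233 FPKM in sgGFP. Its difference was -0.20, with a counting interval from -0.24 to -0.16, and 23 genes within 5 Mb had a median of 0.02. The counting intervals of each gene's 2 levels did not overlap, yet both differences were well inside 1.5-fold, and without replicates differences of this size have no check. GGCX overlaps the end of MAT2A on the opposite strand, at 25.8 FPKM in sgTPST2 and 25.2 FPKM in sgGFP, so it may share reads with MAT2A if the counting ignored strand, which the sources used here do not state.

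The partners of PRMT5 were expressed together with it. WDR77, its obligate partner MEP50, had 40.6 FPKM in sgTPST2 and 44.2 FPKM in sgGFP. The ratio of PRMT5 to WDR77, both in FPKM, was 2.19 in sgTPST2 and 2.26 in sgGFP. CLNS1A (pICln), the adaptor that brings Sm proteins to PRMT5, stood at 143 FPKM in sgTPST2 and 172 FPKM in sgGFP. The adaptor RIOK1 stood at 16.9 FPKM in sgTPST2 and 18.8 FPKM in sgGFP. COPRS, which directs PRMT5 to histones, was the 1 gene of the 5 in this complex that was higher in sgTPST2, at 60.8 FPKM against 50.6 FPKM in sgGFP. None of the 5 was 1.5-fold apart, and their median difference was -0.15, beside 0.00 over all genes past the filter.

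Other arginine methyltransferases were close between the libraries in the same way. Of 8 genes, 7 passed the filter, 0 were 1.5-fold apart and 6 leaned lower, with a median of -0.14. PRMT1, the main asymmetric methyltransferase, stood at 289.9 FPKM in sgTPST2 and 319 FPKM in sgGFP. PRMT3, which methylates a ribosomal protein, was at 27.5 FPKM in sgTPST2 and 35.5 FPKM in sgGFP. PRMT6 was at 11.7 FPKM in sgTPST2 and 13.7 FPKM in sgGFP, and PRMT7 at 33.2 and 37.7 FPKM. Sm and Lsm proteins, spliceosome components among which PRMT5 has its best-known substrates, had a median of 0.01 over 8 genes with 0 apart by 1.5-fold. LSM4 stood at 234 FPKM in sgTPST2 and 197 FPKM in sgGFP, SNRPE at 441 and 379 FPKM, SNRPF at 22.7 and 25.2 FPKM, and SNRPD1 at 155 and 163 FPKM. Pseudogenes of Sm genes could take or lend some of these reads.

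The methionine cycle around MAT2A was expressed and close between the libraries. Of 12 genes, 8 passed the filter, 0 were 1.5-fold apart and the median was -0.17. MAT2B, the regulatory partner of MAT2A, stood at 79.5 FPKM in sgTPST2 and 69.8 FPKM in sgGFP, the opposite direction to MAT2A. The ratio of MAT2A to MAT2B in FPKM was 2.56 in sgTPST2 and 3.34 in sgGFP. METTL16, the RNA methyltransferase that controls splicing of the MAT2A transcript by S-adenosylmethionine supply, stood at 10.2 FPKM in sgTPST2 and 12.4 FPKM in sgGFP. MTRR, which reactivates methionine synthase, stood at 29.3 FPKM in sgTPST2 and 36.0 FPKM in sgGFP. MAT1A, the liver counterpart of MAT2A, was listed at 0 in both libraries.

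Enzymes that act after MTAP in methionine salvage were expressed although MTAP was listed at 0. Of 12 salvage and polyamine genes, all but MTAP passed the filter, 0 were 1.5-fold apart and the median was 0.03. ENOPH1, a later enzyme of the salvage route, stood at 30.7 FPKM in sgTPST2 and 37.8 FPKM in sgGFP. ODC1, the first enzyme of polyamine synthesis, stood at 141 FPKM in sgTPST2 and 168 FPKM in sgGFP. OAZ1, the antizyme that targets ODC1 for degradation, was at 507 FPKM in sgTPST2 and 428 FPKM in sgGFP, and SAT1, which acetylates polyamines for export, at 77.9 and 66.2 FPKM. ODC1 thus stood lower and its antizyme higher in sgTPST2, each by less than 1.5-fold.

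On the CDKN2A side, CDK4 was the abundant D-cyclin kinase and did not differ beyond counting error, whereas CDK6 was low in sgGFP and almost absent in sgTPST2. CDK4 (ENSG00000135446.16, chromosome 12, 57747727 to 57756013, on the long arm) had 89.2 FPKM in sgTPST2 and 93.1 FPKM in sgGFP. The difference was -0.06, with a counting interval from -0.12 to 0.00. CDK6 (ENSG00000105810.9, chromosome 7, 92604921 to 92836594) had 0.114 FPKM in sgTPST2 (counting interval 0.0391 to 0.257) and 1.94 FPKM in sgGFP (1.55 to 2.41). The 2 intervals do not overlap. In RNA from a whole culture, fewer cells with CDK6 RNA and less of it per cell cannot be told apart.

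The difference of CDK6 was -1.40 on the log2(FPKM + 1) scale, or 2.64-fold lower, with a counting interval from -1.64 to -1.16. That scale understates changes of genes near 1 FPKM: the plain ratio of sgGFP to sgTPST2 was 17.1, with a counting interval from 7.27 to 51.0 for 1 kb of transcript. On the longest annotated transcript, of 11612 bp, the 2 levels would stand for about 62 fragments in sgTPST2 and 939 in sgGFP. Of the 13420 genes past the filter, 210 (1.56%) had a lower difference. Among 2248 protein-coding genes whose higher value lay between 1 and 5 FPKM, as that of CDK6 does, 10.7% were at least 1.5-fold lower. In the authors' deposited table CDK6 has p = 0.0077 and q = 0.539, the lowest q of the 10 genes and above the threshold of 0.05.

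The promoters of the kinase pair are shown because their RNA levels lay so far apart, at 785 CDK4 per CDK6 in sgTPST2 and 47.9 in sgGFP (ratio of FPKM). The ratio in sgTPST2 is imprecise, since it divides by a CDK6 level of 0.114 FPKM with a counting interval from 0.0391 to 0.257. The 250 bases before each RefSeq start site (GRCh38.p14, minus strand, chr12:57752311-57752560 for CDK4 and chr7:92836574-92836823 for the upstream of 2 CDK6 starts) are given 5′ to 3′ with GC boxes (GGGCGG) and E-boxes (CACGTG, the core bound by MYC and related factors) in capitals on either strand.
CDK4: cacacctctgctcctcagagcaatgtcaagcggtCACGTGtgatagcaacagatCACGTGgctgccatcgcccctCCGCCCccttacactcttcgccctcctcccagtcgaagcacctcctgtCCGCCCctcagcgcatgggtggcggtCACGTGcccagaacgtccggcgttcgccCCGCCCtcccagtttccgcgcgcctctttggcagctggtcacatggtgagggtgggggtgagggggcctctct
CDK6: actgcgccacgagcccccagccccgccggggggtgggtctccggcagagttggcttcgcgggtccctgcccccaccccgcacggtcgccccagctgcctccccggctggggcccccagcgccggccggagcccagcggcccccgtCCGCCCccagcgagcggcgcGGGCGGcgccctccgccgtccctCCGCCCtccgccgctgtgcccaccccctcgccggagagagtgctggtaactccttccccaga
Both printed windows held 3 GC boxes, a motif found in 42.6% of 35116 promoter windows of this length. The CDK4 window also held 3 E-boxes, a motif found in 6.34% of windows, and the CDK6 window held 0. The window before the downstream CDK6 start (chr7:92833960-92834209), not printed, held 0 GC boxes and 0 E-boxes. The E2F motifs TTTCCCGC, TTTCGCGC, TTTGCCGC and TTTGGCGC, searched on both strands and present in 2.79% of windows, were in none of the 3. None of these motifs overlap each other in the windows printed, and a match is a description, not a shown binding site. The motifs were chosen after the values were seen.

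CDK6 was lower by more than the other expressed genes around it except COL1A2, which was lower still. Its 22 expressed neighbours within 5 Mb (protein-coding, with a mean of at least 5 FPKM) had a median of -0.13, and 1 of them was at least 1.5-fold lower. That 1 was the collagen gene COL1A2, listed above as a fibroblast marker. It stood at 3.47 FPKM in sgTPST2 and 29.05 FPKM in sgGFP, a difference of -2.75. AC000120.3, like CDK6 under that mean, stood at 3.60 FPKM in sgTPST2 and 5.97 FPKM in sgGFP, a difference of -0.60. This gene was thus also at least 1.5-fold lower, and it was named after its values were seen. FAM133B and VPS50, the nearest protein-coding genes of at least 1 FPKM on either side of CDK6, were named after their values were seen. FAM133B stood at 10.4 FPKM in sgTPST2 and 12.1 FPKM in sgGFP, and VPS50 at 6.50 and 9.37 FPKM. AC002454.1, the antisense RNA at the start of CDK6, was listed at 0 in both libraries.

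**Figure D3:**
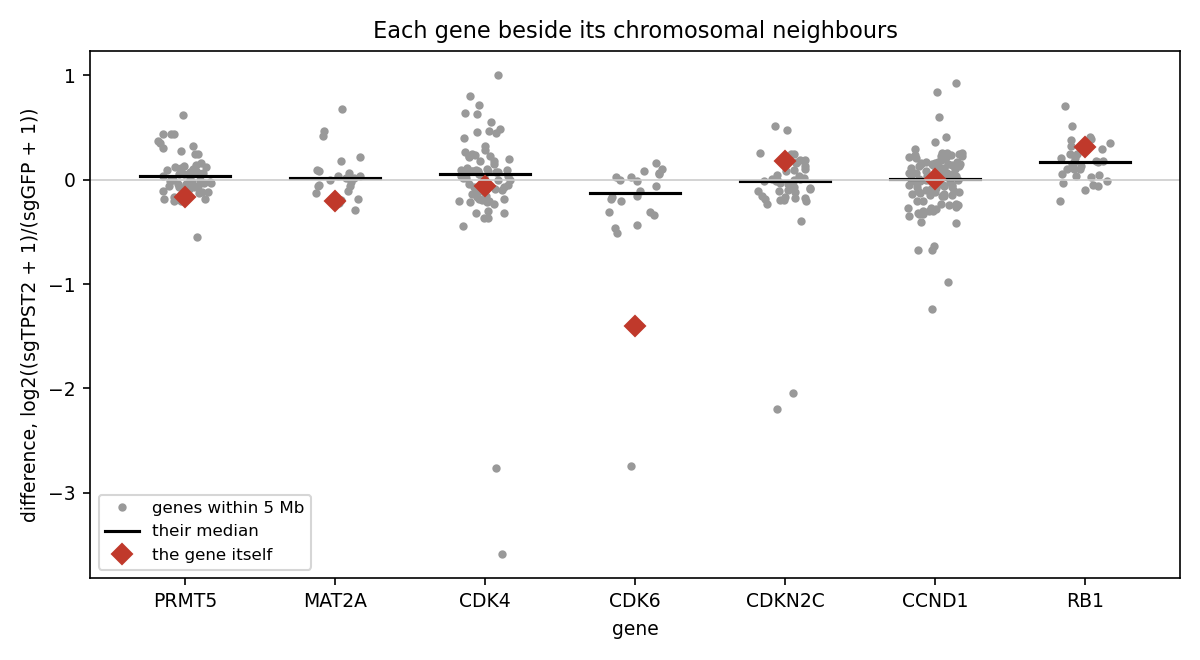
Difference as log2((sgTPST2 + 1)/(sgGFP + 1)) of each of the 7 expressed genes (diamonds) beside that of expressed protein-coding genes within 5 Mb (grey points, with a line at their median). CDK6 at -1.40 lies below the other genes of its region except COL1A2, while the other 6 genes lie among their neighbours.

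CCND1 and CCND3, the D-type cyclins that passed the filter, were not lower in sgTPST2. CCND1 (ENSG00000110092.3, chromosome 11, 69641087 to 69654474), the main D-type cyclin of epithelial cells, had 52.98 FPKM in sgTPST2 and 52.7 FPKM in sgGFP, a difference of 0.01 with a counting interval from -0.07 to 0.09. The 2 levels agree within counting error. LTO1 overlaps its end on the opposite strand, at 12.5 FPKM in sgTPST2 and 9.17 FPKM in sgGFP. CCND3 stood at 24.5 FPKM in sgTPST2 and 20.8 FPKM in sgGFP, and CCND2 was near 0, at 0.0132 and 0.147 FPKM. The plain ratio of sgGFP to sgTPST2 for CCND2 was 11.1, in the direction of CDK6. That ratio rests on about 4 fragments in sgTPST2 and 39 in sgGFP on its longest transcript. For 1 kb of transcript its counting interval ran from 0.997 to 3178. The difference of CCND2 was -0.18. Its 52 expressed neighbours within 5 Mb, on the short arm of chromosome 12, had a median of -0.83. Among the later G1 genes, CDK2 had 62.7 FPKM in sgTPST2 and 56.2 FPKM in sgGFP, and its partners CCNE1 and CCNE2 had 28.3 and 18.5 FPKM in sgTPST2 and 27.0 and 15.2 FPKM in sgGFP. CDC37, the co-chaperone that brings CDK4 to HSP90, stood at 151.0 FPKM in sgTPST2 and 145 FPKM in sgGFP. Of these 9 kinases, cyclins and CDC37, 8 passed the filter, CDK6 was the 1 gene 1.5-fold lower, 0 were higher, and the median was 0.06.

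With CDKN2A and CDKN2B at 0, the other INK4 inhibitors were expressed at low levels in both libraries. CDKN2C (ENSG00000123080.10, chromosome 1, 50960745 to 50974633), which encodes p18INK4c, had 8.74 FPKM in sgTPST2 (counting interval 7.92 to 9.62) and 7.60 FPKM in sgGFP (6.79 to 8.48). The 2 intervals overlap, and the difference was 0.18. CDKN2D, which encodes p19INK4d, had 5.80 FPKM in sgTPST2 and 5.92 FPKM in sgGFP. CDK4 therefore stood roughly an order of magnitude above either inhibitor in FPKM, which says nothing of the proteins.

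Of the 3 CIP/KIP inhibitors, which act on CDK2 as well, CDKN1A and CDKN1B had lower values in sgTPST2 and CDKN1C was level. CDKN1A, the inhibitor p21, had 0.751 FPKM in sgTPST2 and 1.84 FPKM in sgGFP, a difference of -0.70, and passed the filter through its sgGFP value alone. CDKN1B, the inhibitor p27, had 22.5 FPKM in sgTPST2 and 32.7 FPKM in sgGFP, a difference of -0.52. CDKN1B lies on the short arm of chromosome 12, where 102 expressed genes had a median of -0.88 and its 19 neighbours within 5 Mb one of -0.77. CCND2 lies on the same arm, while CDK4 and CDK2 lie on the long arm, whose genes are part of the remaining 335 of the chromosome with a median of -0.01. CDKN1C was at 0.285 FPKM in sgTPST2 and 0.282 FPKM in sgGFP, under the filter. Of the 7 CDK inhibitors 4 passed the filter, CDKN1A was the 1 gene 1.5-fold lower, 0 were higher, and the median was -0.27. That median rests on 4 genes and becomes -0.03 either without the filter or with a filter of 5 FPKM. The 1 lower gene of 4 stands beside 6.94% of all genes past the filter, and beside 10.7% of protein-coding genes in the 1 to 5 FPKM range of CDKN1A. CDKN1B, CDKN2C and CDKN2D, also counted in the 4, lie above that range.

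RB1, the substrate through which the pathway acts, was expressed in both libraries and somewhat higher in sgTPST2. RB1 (ENSG00000139687.15, chromosome 13, 48303726 to 48599436) had 23.5 FPKM in sgTPST2 (counting interval 22.2 to 24.9) and 18.7 FPKM in sgGFP (17.5 to 20.1). The intervals do not overlap, and the difference of 0.31, with a counting interval from 0.19 to 0.44, stayed inside 1.5-fold. Its 31 expressed neighbours within 5 Mb also leaned higher, with a median of 0.17. RCBTB2 and LPAR6 lie within the span of RB1 on the opposite strand. RCBTB2 stood at 3.39 FPKM in sgTPST2 and 2.41 FPKM in sgGFP, and LPAR6 at 0.301 and 0.155 FPKM. The paralogue RBL1 (p107) went the other way, at 18.1 FPKM in sgTPST2 and 22.9 FPKM in sgGFP, and RBL2 (p130) was level, at 18.3 and 18.1 FPKM.

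Pocket proteins, E2F factors and E2F target genes were close between the libraries. Of 13 pocket proteins and E2F factors, a list that includes RB1, RBL1 and RBL2, all passed the filter. Among them 0 were 1.5-fold apart and the median was -0.05. E2F1 stood at 36.9 FPKM in sgTPST2 and 29.5 FPKM in sgGFP, and E2F8 at 6.38 and 4.93 FPKM. Of 20 E2F target genes 0 were 1.5-fold apart, with a median of -0.02. PCNA, the replication clamp, stood at 399 FPKM in sgTPST2 and 332 FPKM in sgGFP. Thymidine kinase TK1 was at 96.4 FPKM in sgTPST2 and 80.2 FPKM in sgGFP. The polymerase gene POLA1 was at 21.1 FPKM in sgTPST2 and 25.6 FPKM in sgGFP, and the transcription factor gene MYBL2 at 63.9 and 73.9 FPKM. Genes of the replication program thus leaned both ways by less than 1.5-fold.

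In the ARF-MDM2 list, 2 of 9 genes were at least 1.5-fold lower and 0 higher, with a median of -0.11, which becomes 0.01 with a filter of 5 FPKM. Of the 9, 7 leaned lower and 2 higher, beside 6714 and 6706 of all genes past the filter. Over all genes past the filter 6.94% were at least 1.5-fold lower, and of protein-coding genes of 1 to 5 FPKM, the range of both lower genes, 10.7%. MDM2, MDM4, BAX and RRM2B, also counted in the 9, lie above that range, so the 10.7% does not match the whole list in level. The 2 lower genes were CDKN1A and the secreted stress cytokine GDF15, named after its values were seen. GDF15 stood at 0.492 FPKM in sgTPST2 and 2.48 FPKM in sgGFP. Both genes passed the filter through their sgGFP value alone. MDM2 stood at 30.6 FPKM in sgTPST2 and 38.5 FPKM in sgGFP, MDM4 at 17.3 and 14.8 FPKM, the pro-apoptotic gene BAX at 65.3 and 60.8 FPKM, and the ribonucleotide reductase gene RRM2B at 9.63 and 10.2 FPKM. Across the 10 lists, 92 of 102 genes passed the filter, and 3 of them (CDK6, CDKN1A and GDF15) were at least 1.5-fold lower and 0 higher. Over all genes past the filter, 6.94% were lower and 4.41% higher, so the 92 genes did not exceed that background in either direction. That background is not matched in level to the 3 lower genes. All 3 had a higher value of 1 to 5 FPKM and passed the filter through their sgGFP value alone. Of protein-coding genes in that range, 10.7% were lower. The other listed genes in that range, PRMT9, AHCYL2, E2F2, E2F7, BBC3, SESN1 and ZMAT3, were within 1.5-fold. In that range the listed genes were thus more often lower than the background, which was not tested.

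**Figure D4:**
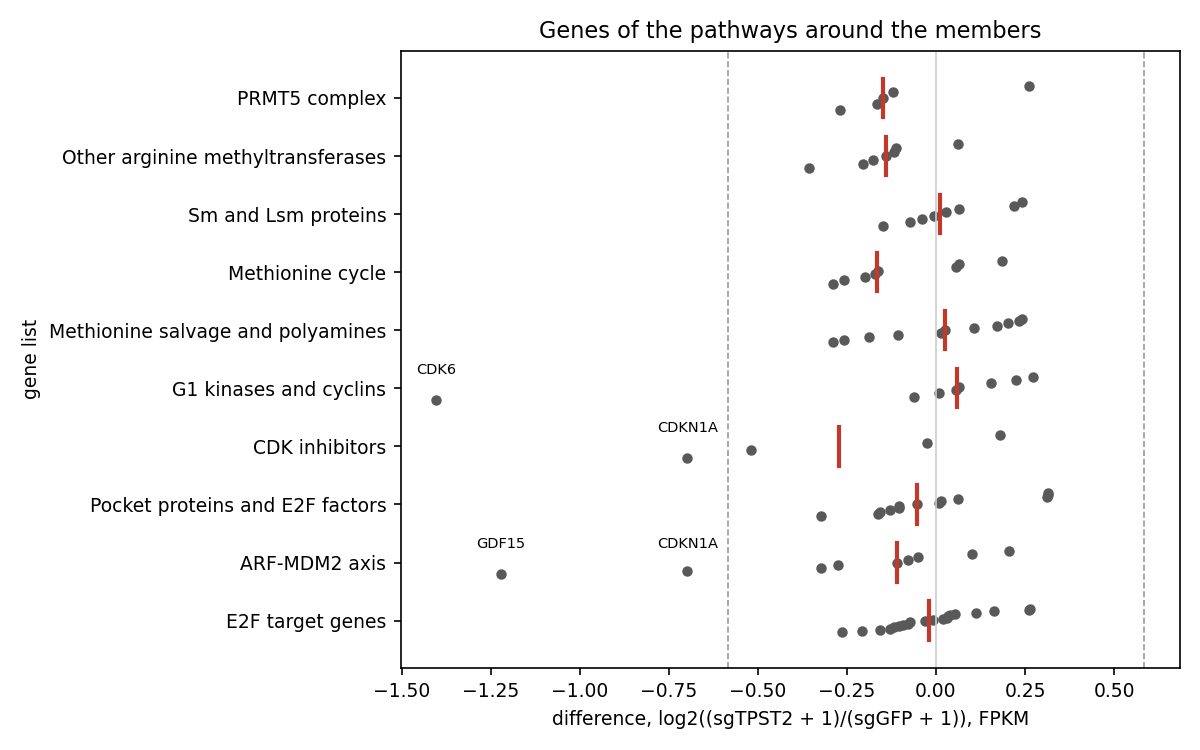
Difference as log2((sgTPST2 + 1)/(sgGFP + 1)) of every gene past the filter in 10 lists around the 10 genes; red lines are list medians and dashed lines mark 1.5-fold. CDK6, CDKN1A and GDF15 lie below the lower line, and list medians lie between -0.27 (CDK inhibitors, 4 genes, -0.03 without the filter) and 0.06.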

How the data were processed

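Total RNA from both cultures was extracted with a column kit and made into strand-marked total RNA libraries, per the labels' protocols. The tools were STAR and Cuffdiff and the build hg38, per the submitters' processing notes, and the sources used here name no version, annotation or strand setting. The deposited table gives 1 value per gene and library. Its header names no unit, and the values were read as FPKM, as Cuffdiff reports them, with the authors' scaling kept (sums of 1000942 in sgTPST2 and 1010078 in sgGFP). The deposited p-value and q-value, its test score and its log2 fold change, equal to log2((sgTPST2 + 1)/(sgGFP + 1)), are the authors'. All 58698 gene identifiers matched GENCODE release 29, which gave coordinates. Depth was read from low values of genes with 1 transcript over 1500 bp: 92.5% of 872 values in sgTPST2 and 91.2% of 928 in sgGFP were within 0.1 of whole fragments, with step and offset fitted on these values and the fit tested on simulated data. Intervals are exact Poisson for levels, conditional on the summed fragments for ratios and from first-order error propagation for log2 differences. The filter kept genes whose higher value reached 1 FPKM, and 1.5-fold is counted with a pseudocount of 1 FPKM. Python 3.11.15, numpy 2.4.6, pandas 2.3.3 and scipy 1.17.1 were used. Promoters are RefSeq's, with entries for 9 of the 10 genes; none for CCND1.

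The 10 genes and the 10 lists were chosen with earlier results of these data known. Named are the 10 genes, TPST2, every gene of the PRMT5 complex, CDK inhibitor and G1 kinase lists, RB1, RBL1 and RBL2, genes of at least 1 FPKM between 19 and 26 Mb of chromosome 9, and up to 4 genes of each other list with the largest absolute difference at 5 FPKM or more. Genes were also named outside this list. Among them were cell-type markers, genes overlapping or beside the 10 genes, and MAT1A. FOCAD, TUSC1, MLLT3, KLHL9, CAAP1, AC000120.3, FAM133B, VPS50 and GDF15 were named after their values were seen. ACER2 and IZUMO3 were named for their place at the edge of the listed zeros or among them. COL1A2, also a marker, AC000120.3 and GDF15 were named for being at least 1.5-fold lower in sgTPST2, the direction of CDK6. Since 2 libraries give 1 difference per gene, no likeness beyond direction could be sought. A planned comparison of protein sequences was not made. Some genes of the lists are not reported here.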

Additional observations from a re-analysis of the deposited data

How the results depend on the processing

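No paired analysis was possible because there is 1 library per group, and no replicate could be left out. CDK6 kept its direction and its place past 1.5-fold where it was counted, at -3.26 with a pseudocount of 0.1, but with a filter of 5 FPKM it dropped out, leaving 0 of the 10 genes and 0 list genes lower. TPST2 was at -2.09 with a pseudocount of 0.1. Over all genes, 928 were higher and 1227 lower with a pseudocount of 0.1. At 5 FPKM or more, 326 were higher and 524 lower. With the main filter, 216 were higher and 393 lower at 2-fold, and 2180 and 2321 at 1.2-fold. At 1.2-fold, 1 of the 10 genes (RB1) was higher, and 5 list genes were higher and 12 lower. At 2-fold, CDKN1A was no longer counted, leaving 2 list genes lower and 0 higher. Genes within 2 Mb of CCND1 had a median of -0.10. The median of the CDK inhibitors became -0.03 both with no filter and with one of 5 FPKM. Each of these follows from the setting itself, which admits other genes or changes the scale or the fold counted. Rescaling to the same upper quartile, to the same sum or to the median gene moved no count by over 1.5 times and no difference of the 10 genes beyond its counting interval; the median of all genes was at most 0.01. No window of 2 Mb gave a median for the genes at 9p21, which had no expressed neighbour there. The precision of the 3 genes at 0 is limited by depth, and by the chance that a listed 0 is a failed estimate.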
